A study of Mus musculus with 51 samples.

Results

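The major urinary proteins (MUPs) are small lipocalins that the mouse liver secretes into the blood, from where the kidney passes them into urine as carriers of volatile scent signals. They are encoded by a cluster of closely related genes and pseudogenes on mouse chromosome 4, and their liver expression is known to be higher in males and to depend on pulses of growth hormone, with glucocorticoid and thyroid hormone also known to act on them. The 6 genes described are Mup3, Mup4, Mup5, Mup9, Mup20 and Mup21, taken by symbol from a matrix of 33773 gene rows. They are 6 of 21 rows whose symbol is Mup and a number, Mup1 to Mup21. Rows of Mup pseudogenes (Mup-ps) are not among these and are not in the sums. Because near-identical copies share sequencing reads, the value of a single row is uncertain where the counting could split reads between copies, and the sum over the rows of each library is given beside the members.

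RNA was sequenced in 21 mouse libraries, of which 15 came from hepatocytes and 6 from liver. Among the hepatocyte libraries 4 were labelled FoxA triple null and 4 FoxA3 null. A further 3 were labelled FoxA1/A2 lox, and 4 carried the label FoxA1/A2 Cre alfp. The liver groups were HNF4a control (2) and HNF4a null (4). Per the design text, the triple null was made in 8 week old mice that carried loxP-flanked (L/L) alleles of FoxA1 and FoxA2 and lacked FoxA3 (FoxA3-/-), by injecting AAV8 with Cre recombinase under the hepatocyte-specific Tbg promoter. Controls with those same alleles received an AAV expressing GFP, and the FoxA3 null libraries, which share the FoxA3 deletion with the triple null, were taken as that control. The HNF4a null livers lost HNF4a as adults, per the design text. For the lox, Cre alfp and HNF4a groups the age, the promoter driving Cre and the vector are not given in the sources used here, nor whether libraries came from separate animals, so p-values measure the spread between these libraries. FoxA1, FoxA2 and FoxA3 are pioneer factors that open liver chromatin, and HNF4a is a nuclear receptor that drives hepatocyte genes.

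Values are RPKM, reads per unit of gene length and of sequencing depth, as deposited. Absolute depth is unknown, and the depth relative to the shallowest library was 1 to 1.1 in liver and 2 to 4.06 in hepatocytes, so low liver values are the least precise. Foxa1 ranged from 3.04 to 3.63 RPKM in the triple null and 6.14 to 10.1 in FoxA3 null, and from 1.14 to 1.34 in Cre alfp and 4.71 to 8.21 in lox. Foxa2 ranged from 0.243 to 0.47 RPKM in the triple null against 11.1 to 20.6 in FoxA3 null, and from 0.991 to 1.26 in Cre alfp against 6.84 to 19.2 in lox. Foxa3 was at most 0.0114 RPKM in the triple null and FoxA3 null libraries and at least 19 in lox and Cre alfp. Hnf4a went against its label, with 118 to 126 RPKM in the control livers but 487 to 545 in those labelled HNF4a null. Directions for that group are therefore those of the libraries labelled HNF4a null. Of 11500 gene rows tested in hepatocytes, 1277 separated the 8 libraries without FoxA3 from the 7 with it, with no overlap, so differences between groups were tested only within each set or as an interaction, and levels across the sets are given with no test. Xist was at most 0.363 RPKM in every library.

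Promoter sequences were available for 14 of the Mup genes in RefSeq (GRCm38.p6), among them 4 members (Mup3, Mup4, Mup9 and Mup21), and all lie on chromosome 4. They are printed because Mup3 and Mup21, which both fell in the 2 FoxA comparisons though by different amounts, were more alike here than either was to Mup4 or Mup9. Mup20, which also fell in both, has no window here. Each is the 250 bases before the annotated start on the minus strand, 5′ to 3′. Capitals mark the searched strings that are named after them (TATATAA on both strands in Mup10). Mup10, which is not a member, is added because it held most of the family's RPKM in the triple null.
Mup3, chr4:62087318-62087567: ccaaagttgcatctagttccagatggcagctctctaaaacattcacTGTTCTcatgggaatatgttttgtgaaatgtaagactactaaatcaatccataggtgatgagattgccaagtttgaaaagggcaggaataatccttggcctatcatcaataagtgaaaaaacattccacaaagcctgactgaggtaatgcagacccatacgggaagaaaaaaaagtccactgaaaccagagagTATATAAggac
Mup21, chr4:62150842-62151091: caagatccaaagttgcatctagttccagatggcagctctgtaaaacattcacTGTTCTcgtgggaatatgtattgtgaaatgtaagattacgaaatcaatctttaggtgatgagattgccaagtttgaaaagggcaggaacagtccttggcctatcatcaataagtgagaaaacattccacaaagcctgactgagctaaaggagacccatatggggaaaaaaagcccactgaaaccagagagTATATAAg
Mup4, chr4:59960668-59960917: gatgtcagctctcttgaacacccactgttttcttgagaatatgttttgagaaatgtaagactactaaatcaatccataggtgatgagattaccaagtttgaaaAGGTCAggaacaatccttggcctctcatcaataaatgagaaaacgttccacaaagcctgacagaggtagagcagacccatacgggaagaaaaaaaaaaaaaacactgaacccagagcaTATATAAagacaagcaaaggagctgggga
Mup9, chr4:60421953-60422202: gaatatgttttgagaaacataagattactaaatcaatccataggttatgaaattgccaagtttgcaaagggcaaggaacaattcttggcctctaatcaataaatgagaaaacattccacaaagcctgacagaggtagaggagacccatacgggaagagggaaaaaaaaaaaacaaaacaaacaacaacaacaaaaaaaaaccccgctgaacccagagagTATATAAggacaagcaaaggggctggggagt
Mup10, chr4:60582156-60582405: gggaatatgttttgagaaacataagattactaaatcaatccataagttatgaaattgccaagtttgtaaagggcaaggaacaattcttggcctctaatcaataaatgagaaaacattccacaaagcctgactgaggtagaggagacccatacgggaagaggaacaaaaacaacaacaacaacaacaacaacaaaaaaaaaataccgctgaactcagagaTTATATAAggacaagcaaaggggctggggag

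Mup3 and Mup21 shared 93.4% of aligned bases in these windows, Mup4 and Mup9 92.5%, and Mup3 and Mup9 83.4%. The window of Mup9 shared 99.6% with those of Mup15 and Mup19, the highest share of the windows compared with it. It shared 99.5% with that of Mup11. In Cre alfp against lox, the mean of Mup9 was 30.9-fold higher and that of Mup11 5.09-fold lower, with overlap for Mup11. Whether likeness of the windows bears on such changes was not tested. Strings were searched on both strands in the 14 Mup windows and in 32851 windows of the same length over all genes. The FoxA string TGTTTAC was in 0 of the 14 Mup windows and 3.17% of all windows. Another form, TGTTTGC, was in 0 of 14 and 4.3% of all. The form TATTTAC was in 0 of 14 and 2.73% of all. The STAT5 string TTCNNNGAA, where N is any base, was in 0 of 14 and in 7.02% of all windows. The string TGTTCT, only a part of the glucocorticoid receptor site, was in 2 of 14, Mup3 and Mup21, and in 16.1% of all windows. It began 204 bases before the annotated start of Mup3 and 198 bases before that of Mup21. The windows of Mup2, Mup9, Mup10 and Mup19 begin after the matching place, and those of Mup15 and Mup17 begin inside it. These windows could therefore not show the string there. Of the strings searched for HNF4a, AGGTCA was in 1 of 14, Mup4, and in 14.0% of all windows. The other, CAAAGTCCA, was in 0 of 14 and in 0.384% of all. A match to such a short string does not show which factor binds there, and binding was not tested. No match of these strings overlapped a match of another.

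The string TATATAA, chosen after the sequences were seen, was in 11 of the 14 windows and in 3.04% of all windows. In Mup10 it matched on both strands at overlapping positions. Its first base lay 11 bases before the annotated start of Mup3, 8 before that of Mup21, 29 before that of Mup4 and 31 before that of Mup9. Upstream of it lay a stretch rich in A, measured from CATAC or CATAT before GGG up to the next CTGAA, also chosen after the sequences were seen. The stretch was 19 bases in Mup3, 16 in Mup21 and 22 in Mup4, and 55 in Mup9 and 54 in Mup10. The gene order in RefSeq put Mup4 at one end of the cluster, Mup9 inside it, and Mup5, Mup20, Mup3 and Mup21 in that order at the other end next to Zfp37.

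In the FoxA triple null against FoxA3 null, which asks what loss of FoxA1 and FoxA2 does where FoxA3 is already missing, the members moved in opposite directions. Mup3, Mup20 and Mup21 fell, by 22.8-fold, 35.2-fold and 82.3-fold between group means of RPKM, while Mup5 rose 3.6-fold. A gene was called where limma's moderated test on log2(RPKM + 1), over all gene rows that passed the filter on low values, gave a Benjamini-Hochberg adjusted p under 0.05 and an absolute log2 difference of at least 1. By this rule 3 of the 6 members were called lower and 1 higher, where 3.95% of all 11500 rows were called lower and 4.17% higher. Of the 15 other Mup rows, 14 were tested, 5 were called higher (Mup10, Mup13, Mup16, Mup17 and Mup18) and 0 lower. Among those not called, the triple null means of Mup11 and Mup14 were 59.6-fold and 52.2-fold lower, with overlapping groups. The mean of Mup15, which was not tested, was 174-fold lower, also with overlap.

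Mup3, the member with the highest mean RPKM in 5 of the 6 groups, measured 461, 547, 432 and 454 RPKM in triple null replicates 1 to 4 and 11700, 11600, 11300 and 8410 in FoxA3 null replicates 1 to 4. All 4 triple null libraries lay far below all 4 FoxA3 null libraries, with a difference of -4.5 on the log2 scale (SE 0.15, limma adjusted p = 5.67e-11). Mup20, which encodes darcin, a protein pheromone of male urine, measured 15.6, 33.3, 15.9 and 21.6 RPKM in the triple null and 1190, 1040, 351 and 465 in FoxA3 null. The groups did not overlap although FoxA3 null replicates 3 and 4 were lower than replicates 1 and 2, and the difference on the log2 scale was -4.96 (SE 0.66, limma adjusted p = 7.28e-05). Mup21, the next Mup gene after Mup3 along the chromosome, measured 2.62, 1.92, 3.65 and 4.26 RPKM in the triple null and 311, 162, 347 and 203 in FoxA3 null. Again no library of one group reached the other, with a difference of -5.93 on the log2 scale (SE 0.43, limma adjusted p = 1.83e-07). The share of all hepatocyte rows with no overlap between triple null and FoxA3 null libraries was not counted.

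Mup5, known mainly from secretory glands, measured 10.7, 13.4, 9.89 and 14.1 RPKM in the triple null and 1.25, 2.38, 5.47 and 4.21 in FoxA3 null. All triple null libraries were higher, by 1.69 on the log2 scale (SE 0.26, limma adjusted p = 0.000264). Mup4, likewise known from glands, was near the floor of these data, at 1.04, 0.402, 1.2 and 0.805 RPKM in the triple null and 0.144, 0.327, 0.263 and 0.178 in FoxA3 null. The groups did not overlap, but the log2 difference of 0.58 (SE 0.14, limma adjusted p = 0.00696) was under the minimum of 1. With a pseudocount of 0.1 in place of 1, the difference of Mup4 was 1.5 (limma adjusted p = 0.00143) and was called. Mup9, one of the near-identical copies inside the cluster, measured 6890, 3600, 4070 and 7350 RPKM in the triple null and 357, 654, 3890 and 2330 in FoxA3 null. FoxA3 null replicate 3 reached into the triple null range, and the log2 difference of 2.11 (SE 0.98, limma adjusted p = 0.118) was not called, while a fit on these 2 groups alone gave an adjusted p of 0.0445.

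**Figure D1:**
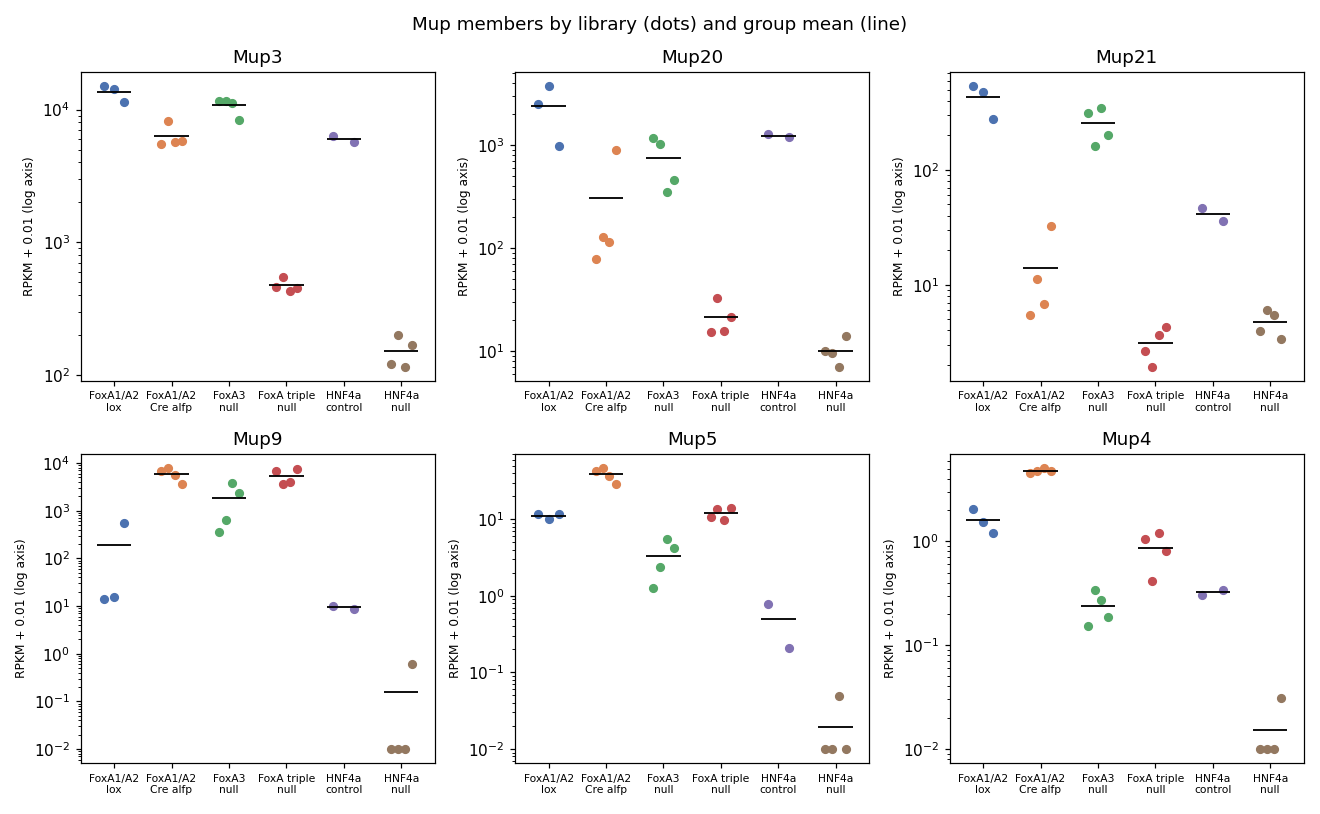
RPKM of each member in every library, with 0.01 added on a logarithmic axis that differs between panels; dots are libraries, lines are group means, and groups are on the horizontal axis. Mup3, Mup20 and Mup21 are low in the triple null libraries, where Mup9 lies between 3600 and 7350 RPKM.

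The sum of the 6 members was 5990 ± 1890 RPKM (SD, n = 4) in the triple null and 13600 ± 1850 (SD, n = 4) in FoxA3 null, a log2 ratio of -1.18. The sum over all 21 Mup rows went the other way, with 45900 ± 3680 RPKM (SD, n = 4) in the triple null and 29300 ± 3410 (SD, n = 4) in FoxA3 null, a log2 ratio of 0.65. Neither pair of groups overlapped. Mup10 alone measured 24000, 27100, 32300 and 27400 RPKM in the triple null and 7530, 9010, 10600 and 10800 in FoxA3 null (log2 difference 1.55, SE 0.18, limma adjusted p = 2.22e-05). The members made up 9.68% to 16.3% of the summed Mup RPKM in the triple null libraries and 42.6% to 51.7% in FoxA3 null. Mup3 alone went from 31.4% to 44.6% of the sum in FoxA3 null down to 0.904% to 1.32%, and Mup10 from 28.8% to 40.4% up to 53.0% to 69.0%. The Mup rows as a whole took 4.54% to 5.44% of all RPKM in the triple null and 3.34% to 3.82% in FoxA3 null.

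Fewer cells of a type and less RNA per cell cannot be told apart in such bulk libraries. Beside these changes, the summed RPKM of 11 measured hepatocyte markers was 51300 to 61800 in the triple null and 62600 to 73700 in FoxA3 null, with 5 of 11 called lower and 2 higher. The summed markers of neutrophils and monocytes were 9.64 to 110 RPKM in the triple null and 0.836 to 2.12 in FoxA3 null. Ly6g was at 0 in both groups. Of 8 listed, only 2 (S100a8 and S100a9) passed the filter on low values, and both were called higher. Whether they passed only through the triple null libraries was not checked, so these calls support nothing. The summed sinusoidal endothelial markers were 7.03 to 13.4 RPKM against 23.5 to 36.2, with 3 of 7 tested called lower. Stellate cell and fibroblast markers summed to 6.5 to 23.4 RPKM against 25.0 to 34.2, with 2 of 3 tested called lower. Erythroid markers summed to 5.94 to 21.7 RPKM against 33.0 to 47.3, with Hbb-b1 and Hba-a1 called higher and Alas2 lower. The part of these cell types in the Mup differences was not tested.

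In FoxA1/A2 Cre alfp against FoxA1/A2 lox, where Foxa3 was expressed in both groups, all 6 members were called, 3 lower (Mup3, Mup20 and Mup21) and 3 higher (Mup4, Mup5 and Mup9). In this comparison 1.1% of all 11500 rows were called lower and 1.29% higher. Mup3 fell 2.16-fold, Mup20 7.94-fold and Mup21 31.0-fold between group means, and Mup4 rose 3.0-fold, Mup5 3.5-fold and Mup9 30.9-fold. Without Cre alfp replicate 4 the folds were 22.4 for Mup20 and 55.6 for Mup21, and for Mup9 the fold was 406 without lox replicate 3 and 21.0 and 21.1 without lox replicates 1 and 2. Of 14 other Mup rows tested, 4 were called higher (Mup10, Mup13, Mup16 and Mup18) and 0 lower. At an unadjusted p under 0.05 were 11 of the 14, among them 4 with negative log2 differences, Mup14 (-5.85), Mup11 (-5.69), Mup12 (-2.2) and Mup7 (-0.83), with limma adjusted p from 0.107 to 0.212.

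Mup3 measured 5500, 8160, 5690 and 5790 RPKM in Cre alfp replicates 1 to 4 and 15100, 14300 and 11500 in lox replicates 1 to 3. The groups did not overlap, and they differed by -1.13 on the log2 scale (SE 0.17, limma adjusted p = 0.00113). The share of all hepatocyte rows with no overlap between Cre alfp and lox libraries was not counted. Mup20 measured 79.3, 130, 116 and 897 RPKM in Cre alfp and 2520, 3780 and 991 in lox. Cre alfp replicate 4 lay close under lox replicate 3, apart from the other 3 Cre alfp libraries. The log2 difference of Mup20 was -3.53 (SE 0.72, limma adjusted p = 0.0104). The call was lost without lox replicate 1 (-3.41, adjusted p = 0.0521), without lox replicate 2 (-3.12, 0.0554) and in a fit on the 2 groups alone (-3.53, 0.0686). Without Cre alfp replicate 4 the difference was -4.3 (limma adjusted p = 0.000251). Mup21 measured 5.39, 11.1, 6.76 and 32.5 RPKM in Cre alfp and 539, 475 and 279 in lox, with every Cre alfp library far below every lox library (log2 difference -5.13, SE 0.47, limma adjusted p = 1.52e-05).

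Mup4 measured 4.5, 4.74, 5.06 and 4.77 RPKM in Cre alfp and 2.06, 1.51 and 1.19 in lox, differing by 1.17 on the log2 scale (SE 0.15, limma adjusted p = 0.00038) with no overlap. Mup5 measured 42.6, 46.4, 37.2 and 29 RPKM in Cre alfp and 11.6, 10.2 and 11.6 in lox, differing by 1.7 on the log2 scale (SE 0.28, limma adjusted p = 0.00294). Mup9 measured 6700, 7820, 5730 and 3700 RPKM in Cre alfp and 14.2, 15.3 and 554 in lox. All Cre alfp libraries were higher, while lox replicate 3 stood well above the other 2 lox libraries, with a difference of 6.8 on the log2 scale (SE 1.05, limma adjusted p = 0.00156).

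The sum of the 6 members was 12600 ± 2480 RPKM (SD, n = 4) in Cre alfp and 16700 ± 2910 (SD, n = 3) in lox, a log2 ratio of -0.4 with overlapping groups. Over all 21 Mup rows the sum was 36400 ± 4570 RPKM (SD, n = 4) in Cre alfp and 30900 ± 9150 (SD, n = 3) in lox, a log2 ratio of 0.24, also with overlap. Leaving out 1 library at a time, the ratio over all rows ran from 0.01 to 0.38, and it was lowest without lox replicate 3, whose sum of 20400 RPKM was below 35600 and 36700 in the others. The members made up 29.4% to 38% of the summed Mup RPKM in Cre alfp and 50.5% to 65.6% in lox. The summed hepatocyte markers were 54300 to 62300 RPKM in Cre alfp and 56400 to 61500 in lox, with 0 of 11 called by limma and 2 at an unadjusted p under 0.05. The marker sums of Kupffer cells, sinusoidal endothelium and neutrophils and monocytes were 22.6 to 64.4, 16.4 to 60.2 and 1.52 to 4.08 RPKM in Cre alfp and 7.68 to 41, 21.9 to 42.5 and 0.979 to 1.54 in lox. Erythroid markers summed to 14.9 to 29.2 RPKM in Cre alfp and 81.3 to 90.8 in lox, with no overlap, and of 3 tested Alas2 was called lower and Hbb-b1 higher. Cholangiocyte markers summed to 7.39 to 12.5 RPKM in Cre alfp and 8.57 to 20.7 in lox, with Spp1 called lower (log2 difference -1.15, SE 0.31). The part of these cell types in the Mup differences was not tested.

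**Figure D2:**
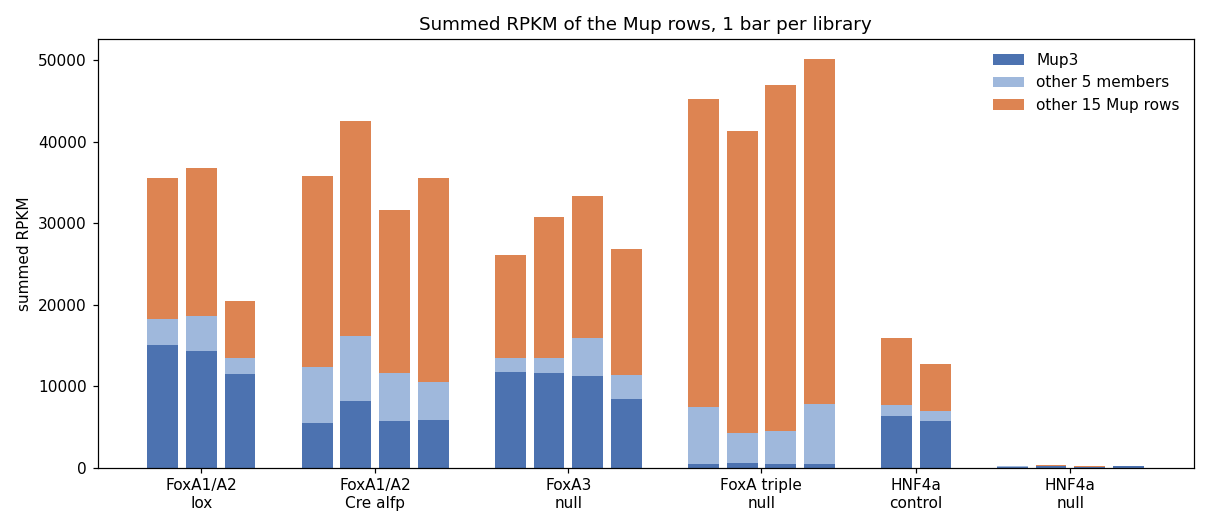
Summed RPKM of the Mup rows, 1 stacked bar per library starting at 0, split into Mup3, the other 5 members and the other 15 Mup rows. The triple null bars lie between 41300 and 50200 RPKM, with almost no Mup3, and Cre alfp replicate 2 reaches 42600. The bars of the libraries labelled HNF4a null are at most 267 RPKM.

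Several Mup rows also differed strongly between libraries of 1 group. In FoxA3 null replicates 1 to 4, Mup11 measured 499, 956, 3.6 and 2.19 RPKM and Mup14 567, 1050, 6.57 and 5.95, whereas Mup9 measured 357, 654, 3890 and 2330. The sum over all rows in those libraries was 26200, 30800, 33400 and 26800 RPKM. In Cre alfp, replicate 4 had 2980 RPKM of Mup11 and 564 of Mup14, where replicates 1 to 3 had at most 15.3 and 1.87. Its Mup20 and Mup21 were also the highest of the group, and its Mup9 the lowest. In lox, replicate 3 had the highest Mup9 and the lowest Mup11, at 764 RPKM against 5770 and 4990. For Mup3 the highest library was 1.27 to 1.48 times the lowest in the 4 hepatocyte groups.

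**Figure D3:**
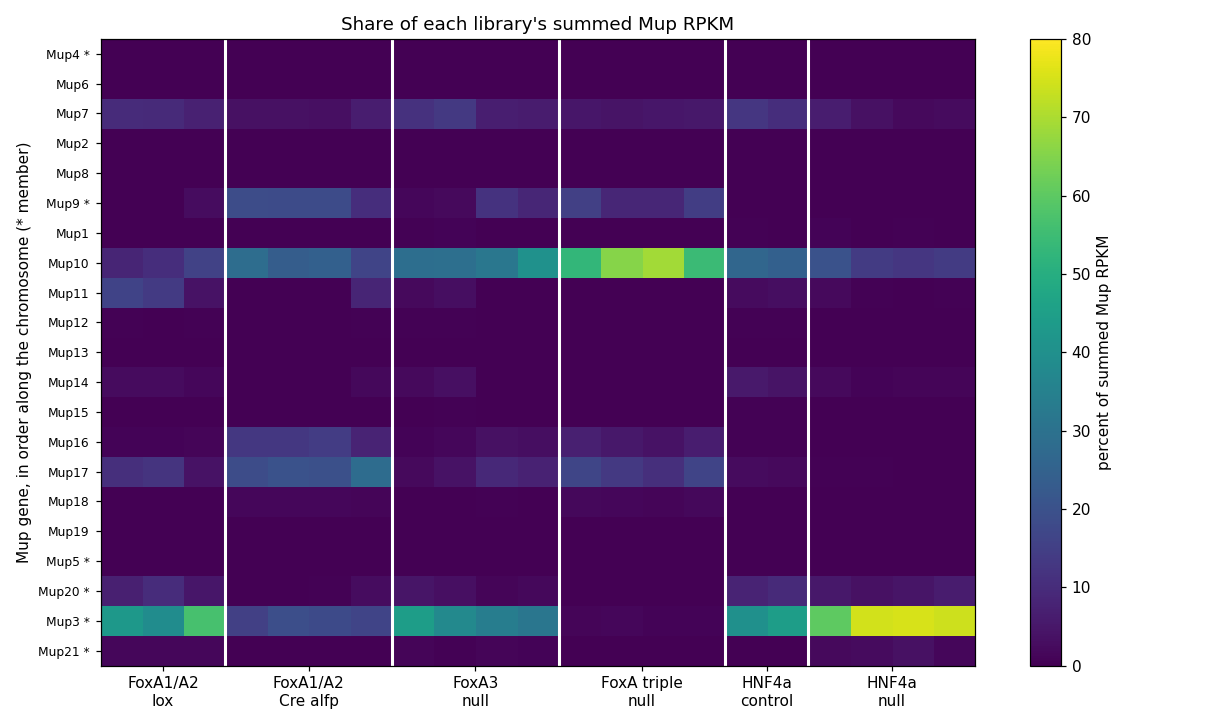
Percent of each library's summed Mup RPKM held by each Mup row, with libraries in columns by group, rows in order along the chromosome and members marked by a star. Mup10 holds 53.0% to 69.0% in the triple null libraries, and Mup3 holds 31.4% to 56.6% in the FoxA3 null and lox libraries.

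Whether the deletion of FoxA1 and FoxA2 acted differently with and without FoxA3 was tested as an interaction, the triple null minus FoxA3 null difference less the Cre alfp minus lox difference. Mup3 was called, with an interaction of -3.37 (SE 0.23, limma adjusted p = 3.44e-07), since Mup3 fell in both comparisons and by more where FoxA3 was missing. Mup9 was also called at -4.69 (SE 1.44, limma adjusted p = 0.0427), but the call was lost in 12 of the 15 fits that leave out 1 library (the 4 triple null, FoxA3 null replicates 2, 3 and 4, lox replicates 1 and 2, Cre alfp replicates 1, 2 and 3), with adjusted p between 0.000645 and 0.121 over all 15. Its value ran from -6.41 without lox replicate 3 to -3.81 without lox replicate 1. For the other 4 members the interaction was not called, at -0.59 (SE 0.21) for Mup4, -0.01 (SE 0.39) for Mup5, -1.42 (SE 0.98) for Mup20 and -0.81 (SE 0.64) for Mup21, which does not show that they acted alike. Of the members 2 of 6 were thus called lower and 0 higher, where 3.54% of all 11500 rows were called lower and 3.28% higher. Of the other Mup rows, 0 of 14 were called by limma and 3 had an unadjusted p under 0.05. How and when Cre alfp deleted the genes is not given in the sources used here, so a difference in the deletion and the FoxA3 status cannot be told apart.

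**Figure D4:**
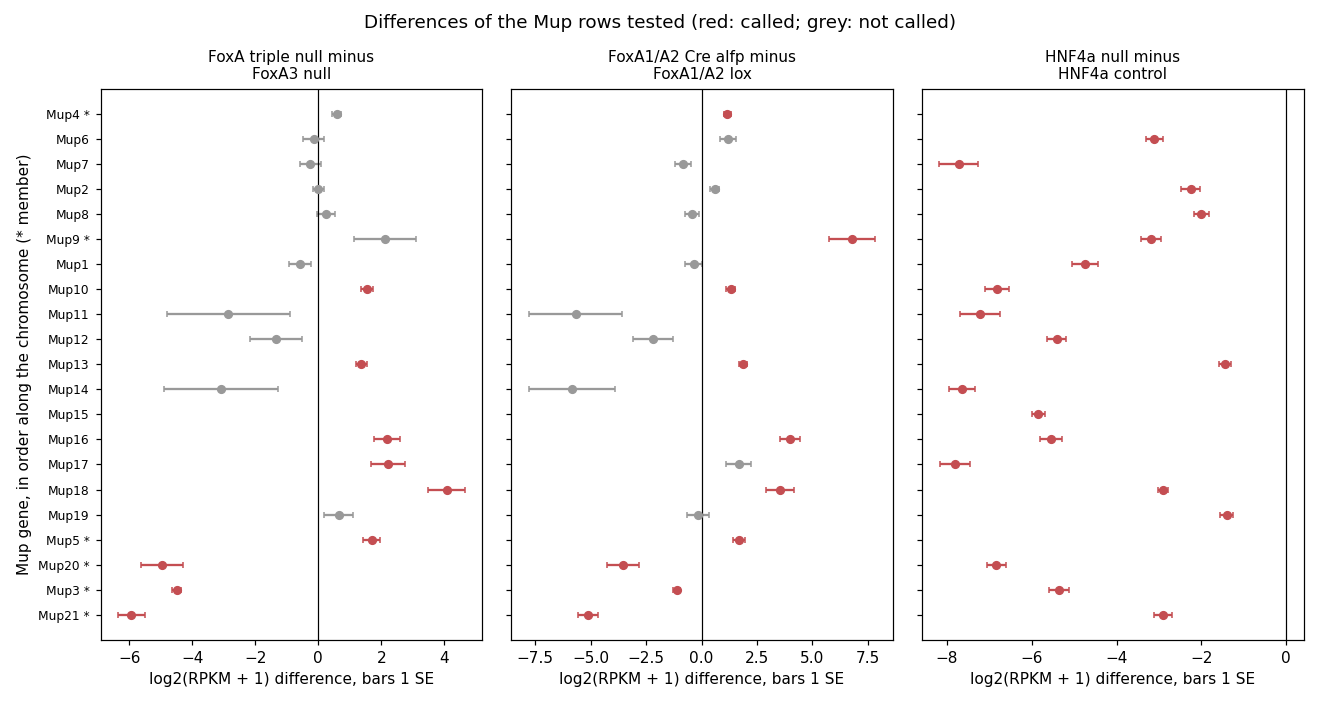
Differences of log2(RPKM + 1) for the Mup rows that passed the filter, in 3 comparisons, with bars of 1 SE, called rows in red and members starred; the horizontal scales differ. Mup20, Mup3 and Mup21 at the end of the cluster lie left of 0 in all 3 panels, while Mup10 lies right of 0 in both FoxA comparisons and at -6.82 in the HNF4a comparison.

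In liver, Mup3, Mup20 and Mup21 were called lower in the libraries labelled HNF4a null. Mup9 was also called lower, but it passed the filter on low values (1 RPKM in at least 2 libraries) only through the 2 control libraries, a choice that favours a lower value in the others, so its call supports nothing. The other Mup rows were called lower too, of which 11 of 15 likewise needed the control libraries to pass, and the 4 that did not were Mup7, Mup10, Mup11 and Mup14. Over all 12434 rows tested 5.95% were called lower and 8.58% higher, so lower calls were 41.0% of the calls, and 62.6% when each library was scaled by its median gene. The median log2 difference of all rows was 0.337, so each difference is also given relative to it. The sum of the 6 members fell 44.3-fold, from 7310 ± 556 RPKM (SD, n = 2) to 165 ± 41.6 (SD, n = 4), and the sum over all 21 rows 67.8-fold, from 14300 ± 2230 (SD, n = 2) to 211 ± 47.6 (SD, n = 4).

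Mup3 measured 6360 and 5680 RPKM in HNF4a control and 120, 198, 115 and 167 in the libraries labelled HNF4a null, differing by -5.35 on the log2 scale (SE 0.24, limma adjusted p = 1.16e-05; -5.69 relative to the median gene). Mup20 measured 1290 and 1200 RPKM in control and 10.1, 9.58, 7.1 and 14 in the others, differing on the log2 scale by -6.83 (SE 0.22, limma adjusted p = 3.4e-06; -7.17 relative to the median gene). Mup21 measured 46.3 and 36 RPKM in control and 3.98, 6.06, 5.44 and 3.36 in the others, differing on the log2 scale by -2.9 (SE 0.22, limma adjusted p = 0.000131; -3.24 relative to the median gene). Mup9, low in liver already, measured 10.1 and 8.53 RPKM in control and was listed at 0 in 3 of the 4 others and at 0.602 in 1, with a difference of -3.19 on the log2 scale (SE 0.23, limma adjusted p = 0.000105; -3.53 relative to the median gene). For Mup3, Mup20 and Mup21 the groups did not overlap, and the share of all liver rows with no overlap was not counted.

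Mup4 and Mup5 did not pass the filter in liver. Mup4 measured 0.295 and 0.329 RPKM in control and was listed at 0 in 3 libraries labelled HNF4a null and at 0.0207 in 1. Mup5 measured 0.782 and 0.199 RPKM in control and was listed at 0 in 3 and at 0.0386 in 1. Mup3 was the largest Mup row in the libraries labelled HNF4a null, with 60.1% to 75.1% of a sum that was 0.0181% to 0.0274% of all RPKM, against 1.69% to 1.97% in control. The hepatocyte marker sum was 37400 to 39100 RPKM in control livers but 19500 to 26600 in those labelled HNF4a null, with 5 of 11 called lower and 1 higher. The cholangiocyte marker sum was 130 to 228 RPKM against 15.8 to 16.8, with 5 of 6 tested called higher. The neutrophil and monocyte marker sum was 6.98 to 18.8 RPKM against 2.64 to 2.99, with 2 of 4 tested called higher. Whether called genes of the cholangiocyte, neutrophil and monocyte sets passed the filter only through the libraries labelled HNF4a null was not checked. Those counts therefore support nothing. Kupffer cell markers summed to 139 to 173 RPKM against 111 to 120, with 1 of 7 called higher. Sinusoidal endothelial markers summed to 158 to 178 RPKM against 123 to 142 and stellate cell and fibroblast markers to 132 to 151 against 106 to 119, with 0 of 8 called in each by limma and 2 and 5 of 8 at an unadjusted p under 0.05. Erythroid markers summed to 165 to 499 RPKM against 258 to 286, with Alas2 called lower (log2 difference -2.85, SE 0.24). The part of these cell types in the Mup differences was not tested.

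Across the 6 groups, the members fell into different orders of level, given as mean RPKM with no test. Mup3 went from 13600 ± 1890 in lox through 10800 ± 1580 in FoxA3 null, 6290 ± 1260 in Cre alfp, 6020 ± 484 in HNF4a control and 473 ± 50.5 in the triple null to 150 ± 39.9 in the libraries labelled HNF4a null (SD, with the n of each group). Libraries of lox and FoxA3 null overlapped, as did those of Cre alfp and HNF4a control, and the other neighbours in that order did not. Mup20 had the order lox (2430 ± 1390), HNF4a control (1240 ± 63.5), FoxA3 null (761 ± 415), Cre alfp (306 ± 395), triple null (21.6 ± 8.29) and labelled HNF4a null (10.2 ± 2.84). Overlap was seen between lox and HNF4a control and between FoxA3 null and Cre alfp. Mup21 had the order lox (431 ± 135), FoxA3 null (256 ± 87.5), HNF4a control (41.1 ± 7.24), Cre alfp (13.9 ± 12.6), labelled HNF4a null (4.71 ± 1.26) and triple null (3.11 ± 1.05). Its neighbours overlapped at lox with FoxA3 null, at Cre alfp with the libraries labelled HNF4a null, and at those with the triple null.

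The other 3 members each had another order, with Cre alfp at the top in all 3. Mup9 was 5990 ± 1750 RPKM (SD) in Cre alfp, 5480 ± 1910 in the triple null, 1810 ± 1640 in FoxA3 null and 194 ± 311 in lox, each overlapping its neighbour, and 9.31 ± 1.1 in HNF4a control. Mup5 was 38.8 ± 7.55 RPKM (SD) in Cre alfp, 12 ± 2.04 in the triple null and 11.1 ± 0.815 in lox, of which the last pair overlapped, then 3.33 ± 1.88 in FoxA3 null and 0.491 ± 0.412 in HNF4a control. Mup4 was 4.77 ± 0.229 RPKM (SD) in Cre alfp, 1.59 ± 0.437 in lox and 0.86 ± 0.345 in the triple null, with overlap between lox and the triple null, then 0.312 ± 0.0242 in HNF4a control and 0.228 ± 0.0826 in FoxA3 null, with overlap. The libraries labelled HNF4a null were the lowest for all 3.

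The authors' deposited tables, whose test and libraries are not given in the sources used here, compare the triple null also with groups not tested above. In the authors' deposited table of the triple null against controls without deletion, Mup3 had a log2 fold change of -5.02 (adjusted p = 6.67e-216 by the authors, tool not given), Mup20 -7.0, Mup21 -7.23 and Mup9 4.73. In the authors' deposited table, Mup4 (-0.65) and Mup5 (0.03) had adjusted p-values of 0.207 and 0.896 in that comparison. Against Cre alfp, the authors' deposited table gave the triple null log2 fold changes of -3.89 for Mup3, -2.2 for Mup4, -1.72 for Mup5 and -2.24 for Mup21. Their p-values in that authors' deposited table, adjusted here by Benjamini-Hochberg, were at most 0.000978. Mup9 had -0.25 in that authors' deposited table (0.516 by the same adjustment), and Mup20 had no row. Against FoxA3 null, the authors' deposited table gave the triple null log2 fold changes of -4.56 for Mup3, -5.17 for Mup20 and -6.33 for Mup21. In that authors' deposited table Mup5 had 1.77, Mup4 1.88 (adjusted p = 0.00102 by the authors) and Mup9 1.61 (adjusted p = 0.0609 by the authors). How many of all its rows differed was not counted here. Other Mup rows lower at an adjusted p under 0.05 in that authors' deposited table were Mup11 (-5.29), Mup14 (-5.59) and Mup15 (-5.77). Those higher in that authors' deposited table were Mup2 (only 0.61), Mup10 (1.49), Mup13 (1.65), Mup16 (1.92), Mup17 (1.92) and Mup18 (3.51). This threshold has no minimum difference and is looser than that of the limma calls. The limma fit did not call Mup11 and Mup14 and did not test Mup15. In the authors' deposited table of hepatoblasts against adult hepatocytes, the 5 members listed had log2 fold changes of -4.23 (Mup5) to -11.67 (Mup20). In the authors' deposited table of newborn samples against adult hepatocytes they had -7.51 (Mup4) to -15.54 (Mup20). In the authors' deposited table of the triple null against hepatoblasts, members had log2 fold changes of 3.05 (Mup3) to 12.13 (Mup9), apart from Mup21. Mup21 had 0.2 in that authors' deposited table, with an adjusted p of 0.649. The shares of all rows higher or lower in the tables with hepatoblasts or newborn samples were not counted here, so these values do not set the members apart. The tables that hold the triple null share its libraries. Within rounding, triple null values against hepatoblasts equal those against controls without deletion less those of hepatoblasts against adult hepatocytes. This holds for the members with a row in each, so that table adds no separate evidence for them.

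Growth hormone signalling, the main known hormonal input of these genes, was described by 23 genes, of which 21 were tested. In the triple null against FoxA3 null 1 rose and 1 fell, with a median log2 difference of 0.14 beside 0.045 over all rows, and these counts of 1 of 21 are near the shares over all rows (4.17% and 3.95%). At an unadjusted p under 0.05 were 9 of 21, among them Igf1 (0.84, SE 0.12, limma adjusted p = 9.79e-05) and Stat5a (0.93, SE 0.17, limma adjusted p = 0.001), which were under the minimum difference. The oestrogen receptor gene Esr1 rose (log2 difference 1.1, SE 0.19), and Igfals, which encodes a carrier subunit for circulating IGF1, fell (log2 difference -1.51, SE 0.21). In Cre alfp against lox 0 of 21 were called by limma, 3 had an unadjusted p under 0.05, and the median was 0.24 beside 0.017 over all rows. Ghr, the growth hormone receptor gene, was not called in either FoxA comparison, with 136 to 206 RPKM in the triple null and 151 to 265 in FoxA3 null. In the libraries labelled HNF4a null 4 of 21 fell and 2 rose, with a median of -0.34 beside 0.337 over all rows. Ghr fell most (24.2 to 31.9 RPKM against 171 to 173, log2 difference -2.55, SE 0.12), with Igf1 (-2.09, SE 0.11), the liver factor gene Cebpa (-1.43, SE 0.1) and the repressor gene Bcl6 (-1.21, SE 0.19), while Hnf4a and the prolactin receptor gene Prlr (1.67, SE 0.2) rose.

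Of 19 other genes known to be higher in male than female mouse liver, 18 were tested. In the triple null against FoxA3 null 10 fell and 3 rose, with a median log2 difference of -1.56. The steroid dehydrogenase gene Hsd3b5 fell from 122 to 183 RPKM in FoxA3 null to 0.982 to 1.72 (log2 difference -6.02, SE 0.32), the glucuronosyltransferase gene Ugt2b1 by 6.2 on the log2 scale (SE 0.19) and the anion transporter gene Slco1a1 by 6.04 (SE 0.65). Against that direction, Cyp4a12a rose from 85.5 to 207 RPKM to 439 to 629 (log2 difference 1.88, SE 0.39), and Cyp4a12b and Ugt2b38 also rose. In Cre alfp against lox 7 of 18 fell and 0 rose, with a median of -0.95, led by Hsd3b5 (log2 difference -5.91, SE 0.35) and Selenbp2 (-5.29, SE 0.6). In the libraries labelled HNF4a null 17 of 18 fell and 0 rose, with a median of -4.16. The interaction was called lower for 4 of the 18, among them Ugt2b1 (-5.69, SE 0.28) and Slco1a1 (-5.35, SE 0.96), and higher for 1, Ugt2b38 (2.33, SE 0.72), with a median of 0.24 beside 0.027 over all rows.

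Of 22 genes known to be higher in female liver, 14 were tested in hepatocytes and 10 in liver. In the triple null 5 rose and 1 fell, with a median log2 difference of 0.48, led by the steroid-synthesis enzyme gene Cyp17a1 (4.43, SE 0.41). In Cre alfp 7 rose and 0 fell, with a median of 1.9, led by the sulfotransferase gene Sult2a2 (3.44, SE 0.63). In the libraries labelled HNF4a null 7 rose and 2 fell, with a median of 2.07, led by Cyp2a4 (6.29, SE 0.32). Whether some of those that rose passed the filter only through the libraries labelled HNF4a null was not checked. Of the genes used to mark sex, the 4 tested were the Y-linked Ddx3y, Eif2s3y, Uty and Kdm5d, while the X-linked Xist was not tested. By limma 0 of these 4 were called in any of these comparisons. In the HNF4a comparison 4 of 4 had a limma adjusted p of 0.00151 (Kdm5d) to 0.0141 (Ddx3y), with log2 differences of 0.4 to 0.71 that were under the minimum. Their median was 0.53, or 0.19 relative to the median of all rows. In Cre alfp 1 of 4 did so, Uty (0.76, limma adjusted p = 0.00761), and in the triple null 0 of 4 had an unadjusted p under 0.05.

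Other lipocalins, which share the fold of the MUPs, were described by 12 genes. Of 10 tested in hepatocytes, 3 rose and 1 fell in the triple null, with a median log2 difference of 0.44. The acute-phase gene Lcn2 rose from 8.8 to 36.9 RPKM to 601 to 1030 (log2 difference 5.21, SE 0.44), the orosomucoid genes Orm3 and Orm2 rose (4.26, SE 0.21, and 2.48, SE 0.48), and Ambp, which encodes a plasma lipocalin and a protease inhibitor, fell from 1870 to 2290 RPKM to 78.1 to 156 (-4.12, SE 0.19). In Cre alfp 1 of 10 rose, Orm3 (2.58, SE 0.23), and 0 fell. In the libraries labelled HNF4a null 4 of 8 rose and 2 fell, with the lowest differences in Apom (-6.05, SE 0.38) and C8g (-5.04, SE 0.2).

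The genes whose pattern was most like a member's were taken by Pearson correlation of log2(RPKM + 1) over the 15 hepatocyte libraries. They were sought among 11480 rows, which leave out the rows named Mup and a number but keep the Mup pseudogene rows. These libraries fall into the 4 groups and differ in depth, so the values are a description. Most like Mup3 were the complement gene C8b (r = 0.996), the carboxylesterase gene Ces3a (0.990) and the hydroxyacid oxidase gene Hao1 (0.989). Most like Mup20 were Aox1 (0.970), Dhx36 (0.951) and the male-biased gene Susd4 (0.943), and most like Mup21 were Tpst1 (0.969), Shmt2 (0.963) and Phyh (0.963). Most like Mup9 was the pseudogene row Mup-ps4 (0.966), which neighbours it, ahead of Cbx7 (0.867) and Ano8 (0.864). For Mup4 they were Mup-ps18 (0.967), Slc12a7 (0.926) and Gm10073 (0.926), and for Mup5 Ppp3ca (0.963), Efna5 (0.941) and Mup-ps18 (0.935). Pseudogene rows may share reads with the member rows, and the part of this in their correlations was not tested. Most like the sum of the 6 members were Ces3a (0.934), 1300017J02Rik (0.930), Slc22a30 (0.926), Plcb3 (0.921) and Ccbl1 (0.919).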

How the data were processed

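RNA was measured in 21 of the series' 51 samples. The authors deposited RPKM values in 1 matrix of 30 value columns, of which 21 matched a sample or group by name and 9 others were not used. The HNF4a columns carry barcodes in place of replicate numbers. The submitters' processing notes name Cufflinks 2.2.1, SAMtools, DESeq2 and the build mm9, with no roles. Of values above 0, 2.9% were under 1e-06. The authors also deposited tables of log2 fold changes and p-values. The sign of the table against undeleted controls was turned, and unadjusted p-values of the table against Cre alfp were adjusted here (Benjamini-Hochberg). The HNF4a peak list and the chromatin samples were not used here.

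The test of differences of log2(RPKM + 1) was that of limma 3.58.1 (R 4.3.3; lmFit, eBayes with a trend, no covariates), in 1 fit of the 15 hepatocyte libraries over rows of at least 1 RPKM in at least 3 libraries and 1 fit of the 6 liver libraries with that minimum in at least 2. This scale shrinks the fold changes of rows with low values. Rows that passed only through 1 group were looked for among the Mup rows but not among the listed genes. Calls needed an adjusted p under 0.05 and an absolute log2 difference of at least 1. Sums were described with no test. A further gene of the growth hormone list is not reported here and is not in its counts. The members, gene lists and tests were chosen with earlier results of these data known. All 6 members are named, other Mup rows by sum, range and call, list genes by call or the 3 largest differences, and the most similar rows by correlation. Alternatives were another pseudocount, no filter, median scaling, no minimum difference, a replicate block, fits of 2 groups, all Mup rows in the sum, the log scale for the sum, and leaving out each library. Promoters were read from RefSeq (GRCm38.p6), which is not the build of the RPKM files, so their coordinates were not joined to those files.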

Additional observations from a re-analysis of the deposited data

Results flagged for a closer look

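In 32 groups of 4 libraries, 1 for each member and sum, Dixon's test at the 95% level set 6 values apart, where chance alone sets about 1 in 20 apart; for 3 of the 6 the other libraries were all listed at 0, which fixes that outcome. FoxA3 null replicate 4 had the low Mup3 value of 8410 RPKM, and Cre alfp replicate 2 the high Mup3 value of 8160 RPKM. Cre alfp replicate 4 had 897 RPKM of Mup20, where the others of its group had at most 130. Those 3 lay in the libraries labelled HNF4a null, where single libraries had 0.0207 RPKM of Mup4, 0.0386 of Mup5 and 0.602 of Mup9, with the rest at 0. The interaction was called for Mup3 (-3.37, limma adjusted p = 3.44e-07) and Mup9 (-4.69, limma adjusted p = 0.0427). The Mup9 call was lost in 12 of 15 fits that leave out 1 library, with adjusted p up to 0.121. FoxA3 status cannot be told apart from a difference in how the deletion was made.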

How the results depend on the processing

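With all 21 Mup rows in place of the 6 members, the log2 ratio of the sum reversed to 0.65 in the triple null, 0.24 in Cre alfp and 0.41 for the interaction, and moved to -6.08 for HNF4a. With no minimum difference, calls over all genes numbered 3413, 628, 1658 and 6569 in these 4 comparisons, against 933, 274, 784 and 1807. A fit on Cre alfp and lox alone called 182 genes, and leaving out 1 library there gave 177 to 284. The number of members with a called interaction was 1 with no filter on low values, where Mup9 lost its call (adjusted p = 0.116), and 1 to 2 when leaving out each library. The interaction of Mup5, near 0, changed sign with a pseudocount of 0.1 (0.23) and ranged from -0.28 to 0.23 when leaving out each library.

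The replicate numbers did not pair the libraries (correlations of same-numbered libraries -0.36 to 0.12). With a replicate block the interaction of Mup5 was 0.02, members called numbered 4, 6 and 2 in the triple null, Cre alfp and interaction, and 919, 229 and 772 genes were called over all rows. No paired analysis was possible in liver because the columns carry no replicate numbers. Without 1 of the 2 HNF4a control libraries, the lone one is assumed to vary like the others. Over all settings and comparisons, 291 of 319 values of single members kept their direction and side of the threshold. Absolute depth is unknown, so no limit can be given for Mup4, Mup5 and Mup9 where they were listed at 0 in liver.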
